A study of Mus musculus with 6 samples.

Results

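The genes described are the amino acid response programme and the cytosolic aminoacyl-tRNA synthetases of stage 0 invariant natural killer T (iNKT) cells, the earliest stage of these cells in the thymus. They were taken by symbol from the table of read counts, as a named list of 39 of its 48397 genes. The list holds the transcription factor gene Atf4, 4 of its stress targets, 5 genes of amino acid synthesis, 2 of mitochondrial one-carbon metabolism, 7 amino acid transporters and 20 synthetases. Every synthetase and nearly every transporter gene was well expressed, whereas Chac1, Trib3, Asns and Slc1a4 had few reads or none. Psat1, the aminotransferase of serine synthesis, had 1.70-fold more reads in BALB/c than in SKG cells, with no overlap between libraries. It passed the thresholds in DESeq2 and not in edgeR, where no member did.

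The study compared stage 0 iNKT cells of wild-type BALB/c mice with those of SKG mice, in which TCR signalling through Zap70 is weakened. On a BALB/c background, SKG mice carry a hypomorphic missense mutation of Zap70 in the germline, and no other allele or agent is named. Mice of both genotypes were 8 to 10 weeks old. Each of the 3 libraries per genotype was made from about 1000 sorted cells and a pool of 3 thymi, so a replicate is a pool and mice within it are not resolved. The sort took cells that bound the PBS57-loaded CD1d tetramer and were positive for CD24 and CD69, negative for CD44 and CD8, and low or negative for CD4. Since the SKG mutation changes an amino acid, Zap70 mRNA cannot check the genotype labels.

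When amino acids run short, uncharged tRNAs activate the kinase GCN2 (the product of Eif2ak4), which phosphorylates the translation factor eIF2α. General translation falls while the Atf4 mRNA is translated more, and ATF4 then induces genes for amino acid synthesis and uptake, one-carbon metabolism and many tRNA synthetases. The synthetases join each amino acid to its tRNA, and in animals several of them sit together in a multi-synthetase complex while the others are free in the cytosol. T cells draw on these genes when they grow and divide. An mRNA count measures neither ATF4 translation nor eIF2α phosphorylation.

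The element through which ATF4 acts with C/EBP partners was searched in promoters, and 3 of the members that carry its core are printed as examples. Windows from 250 bases before to 50 bases after the RefSeq gene start (GRCm38.p6) were present for 29 of the 39 members. The core TGATGNAA, searched on both strands, was found in 9 of the 29 (31%) and in 4.51% of 27025 genes with a window. The 9 were Asns, Chac1, Trib3, Slc1a4, Aars, Gars, Iars, Tars and Yars. The palindrome TGACGTCA was in 0 of 29 members and 2.03% of all genes, and the E-box CACGTG, also a palindrome, was in 5 of 29 (17.2%) and 8.09%. Aars, Iars and Tars held both the core and the E-box. Each sequence below runs 5′ to 3′ on the strand of its gene, with the element in capitals. In Chac1 and Gars the capitals read as the reverse complement of the core. The Asns element began 23 bases before the RefSeq start (chr6:7693214-7693243, minus strand), that of Chac1 193 bases before (chr2:119351009-119351096, plus) and that of Gars 30 bases before (chr6:55037931-55038000, plus). A GENCODE exon overlaps the stretch of Asns, for which 30 bases are shown.
Asns: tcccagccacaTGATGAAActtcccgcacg
Chac1: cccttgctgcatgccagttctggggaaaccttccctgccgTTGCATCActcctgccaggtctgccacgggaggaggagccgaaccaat
Gars: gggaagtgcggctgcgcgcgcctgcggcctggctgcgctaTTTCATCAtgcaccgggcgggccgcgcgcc
Such matches describe letters only. Of these 3 genes, Asns and Chac1 were at or near 0 reads while Gars had 5890 or more in every library, so carrying the element did not go with one level of expression. The windows of Psat1 held none of the 3 motifs.

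Libraries held 37176544 to 43115544 counted reads, and members took 0.546% to 0.75% of them. At this similar depth, 10835 to 14791 genes had at least 10 reads, with the fewest in SKG 3 and BALB/c 1 (11415). These libraries also held the extremes of many members, so counts are given with and without them where they changed. All 15 T and iNKT cell markers were detected, at a summed level of 10668 to 12887 CPM (a gene's reads scaled to the size of its library). Of other cell types, summed markers of double-positive thymocytes (9 of 9 detected) were 72.2 to 451 CPM in BALB/c and 91.1 to 223 in SKG. B cell markers (8 of 8) were 8.73 to 94.9 and 7.42 to 58.0 CPM, myeloid markers (9 of 10, S100a9 at 0) 3.48 to 64.8 and 6.33 to 153. Thymic epithelial markers (4 of 7, with Krt5, Krt14 and Psmb11 at 0) were 28.1 to 41.4 and 10.0 to 86.9 CPM. The ranges of every one of these lists overlapped between the genotypes. This holds for the sums only, since some single markers of T and iNKT cells and of double-positive thymocytes had libraries without overlap. Among erythroid markers, Hbb-bs and Hba-a1 had 34.6 and 19.6 CPM in BALB/c 1 and at most 0.608 and 0.443 CPM in the other 5 libraries. The part of these cell types in the results was not tested.

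Between the genotypes, 35 of the 39 members had enough reads to be tested. Levels are CPM after TMM normalization, and fold changes are SKG over BALB/c from edgeR's quasi-likelihood fit of 12312 genes, with adjusted p over all of these. A gene was called at an adjusted p under 0.1 if it also changed at least 1.5-fold. No member was called, with a lowest edgeR adjusted p of 0.617, and neither was any other gene (0% of 12312). DESeq2 called 2.58% of 14342 genes and 1 of the 37 members to which it gave an adjusted p (2.7%), a share near that of all genes. limma-voom called 0. At an unadjusted edgeR p under 0.05, 1 member was higher in SKG (Rars; 3.07% of all genes) and 2 in BALB/c (Psat1 and Gars; 2.38% of all genes). Without overlap between the libraries of both genotypes, 1 member was higher in SKG (Rars), against 6.77% of all genes, and 3 in BALB/c (Psat1, Slc1a5 and Gars), against 7.12%. Fitted fold changes were above 0 on the log2 scale for 13 members and below 0 for 22, with a median of -0.17 beside -0.02 for all genes tested. In bulk RNA, fewer cells that express a gene and less RNA per cell cannot be told apart.

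**Figure D1:**
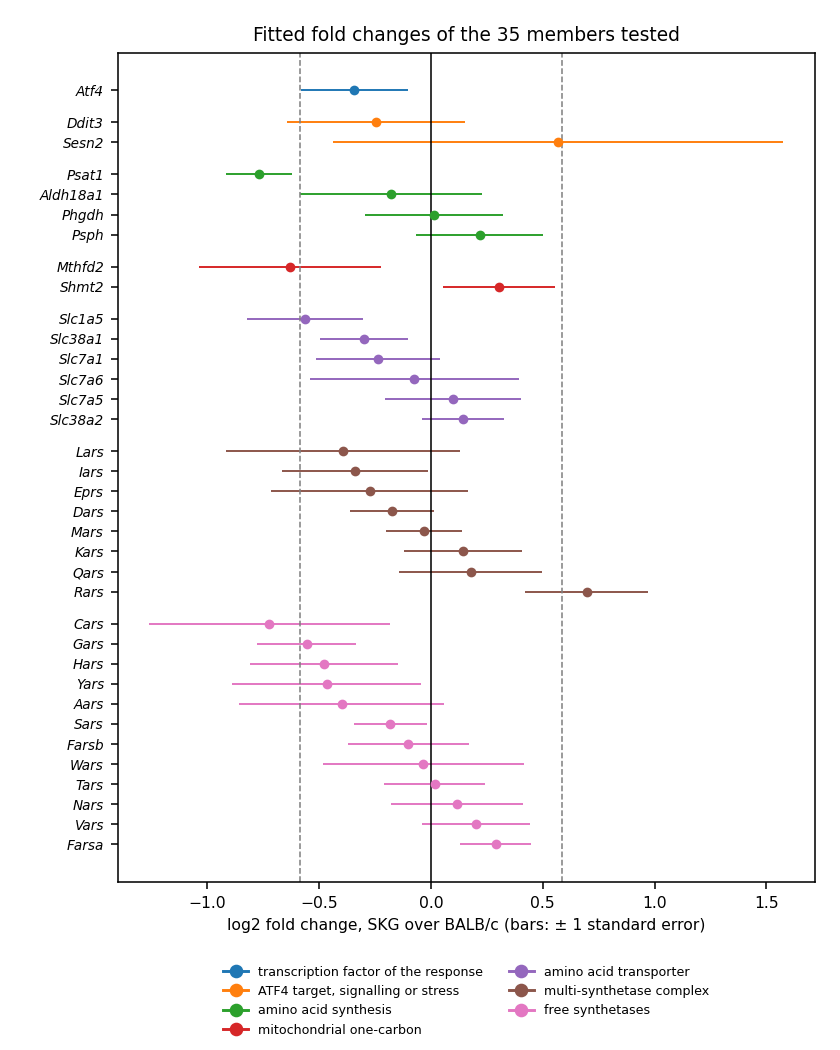
Fitted log2 fold changes (SKG over BALB/c) of the 35 members tested, by role, with bars of 1 standard error and dashed lines at a fold change of 1.5. Psat1 at -0.77 lies beyond the line with a short bar, and Rars at 0.70 is the highest.

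The plot of fold changes shows both signs in every role group with more than 1 tested gene. Bars were longest for Sesn2 (standard error 1.01) and shortest for Psat1 (0.15) and Farsa (0.16).

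Atf4, the transcription factor of the response, had 200, 239 and 248 CPM in the BALB/c libraries and 128, 225 and 189 CPM in the SKG libraries. SKG 1 and 3 were below all BALB/c libraries, and SKG 2 lay among them. The log2 fold change was -0.34 ± 0.24 (SE), with an edgeR adjusted p of 0.988. Without SKG 1 it was -0.15 and without SKG 2 -0.52. Per kb of transcript, Atf4 had the fifth highest level of the 39 members.

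The 4 stress targets of ATF4 ranged from no reads to a middling level, with Ddit3 at rank 22 of the 39 members per kb. Ddit3, which encodes the pro-apoptotic factor CHOP, had 30.6, 43.1 and 48.9 CPM in BALB/c and 23.9, 37.9 and 41.7 CPM in SKG, with overlapping libraries. Sesn2, a leucine-binding brake on mTORC1, had 6.5, 33.6 and 18.3 CPM in BALB/c and 50.2, 32.6 and 3.82 CPM in SKG. It varied more than any other tested member, 13.1-fold between SKG 3 and SKG 1, which were of the same genotype. Chac1, which encodes an enzyme that degrades glutathione, had 0 reads in all 6 libraries, where a count of 0 allows up to 3 reads per library by counting error alone. Trib3, a pseudokinase that restrains the response, had 236 reads in SKG 2 and 0 in the other 5 libraries. Neither Chac1 nor Trib3 was tested.

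Among the genes of amino acid synthesis, Psat1 stood out by its small spread. Psat1 (chr19:15904678-15947337, minus strand, GRCm38) makes phosphoserine, the intermediate just before serine. It had 226, 228 and 207 CPM in BALB/c and 122, 138 and 128 CPM in SKG. The lowest BALB/c library was above the highest SKG library, and the means were 221 ± 11.6 (SD, n = 3) and 129 ± 7.96 (SD, n = 3). The log2 fold change was -0.77 ± 0.15 (SE). Its adjusted p was 0.617 in edgeR, 0.576 in limma-voom and 2.43e-04 in DESeq2. With each library left out in turn, DESeq2 called it each time, at log2 fold changes of -0.80 to -0.71 and adjusted p of 2.46e-04 to 0.0395. In edgeR, the same left-out libraries gave adjusted p of 0.606 to 0.9998, and Psat1 was never called.

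The other enzymes of the serine pathway did not follow Psat1. Phgdh, which commits a glycolytic intermediate to serine, had 64.4, 76.9 and 52.0 CPM in BALB/c and 60.4, 50.3 and 84.6 CPM in SKG. Its log2 fold change was 0.01 ± 0.31 (SE), an interval that holds a change of either sign. Phgdh is uncertain, since 8 processed pseudogenes match its transcript at 95% identity or more. The closest, Gm7901 (98.7%), had 2550 reads over all libraries beside 15303 for Phgdh. Psph, the last enzyme of the pathway, had 45.8, 50.5 and 55.4 CPM in BALB/c and 47.9, 58.2 and 70.3 CPM in SKG, with a log2 fold change of 0.22 ± 0.28 (SE). Exons of Cct6a overlap 10.4% of the exonic bases of Psph, and counting did not use the strand.

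**Figure D2:**
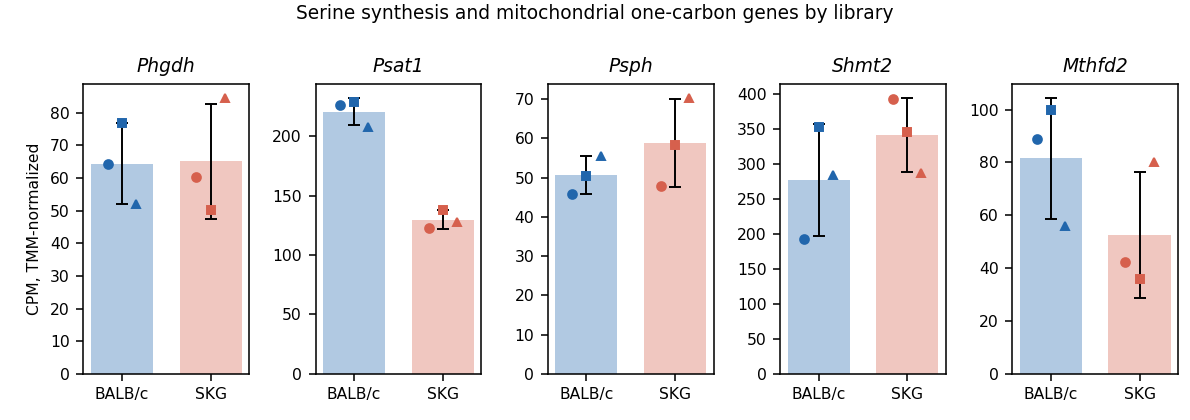
TMM-normalized CPM (linear axes from 0) of 3 serine synthesis genes and 2 mitochondrial one-carbon genes; bars are means of 3 libraries, whiskers ± 1 SD, and circles, squares and triangles are replicates 1, 2 and 3. Psat1 is the only panel whose BALB/c points (207 to 228) all lie above the SKG points (122 to 138).

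Ratios within a library, chosen after the values were seen, set Psat1 against its pathway without any normalization between libraries. The log2 ratio of Psat1 to Psph reads was 2.31, 2.18 and 1.90 in BALB/c and 1.35, 1.25 and 0.86 in SKG, with no overlap. Psat1 to Phgdh was 1.81, 1.57 and 2.00 in BALB/c and 1.02, 1.46 and 0.60 in SKG, again apart. Psat1 to Shmt2 was 0.23, -0.63 and -0.45 in BALB/c and -1.68, -1.32 and -1.16 in SKG. Psat1 to Atf4 overlapped, with mean log2 ratios of -0.05 ± 0.22 in BALB/c and -0.44 ± 0.34 in SKG (SD, n = 3 each). These ratios carry the Psat1 difference itself and are no separate evidence of it.

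Of the remaining synthesis genes, Aldh18a1, whose enzyme starts proline synthesis, had 123, 159 and 145 CPM in BALB/c and 209, 97.7 and 70.5 CPM in SKG. The SKG libraries thus lay on both sides of the BALB/c range. Asns, asparagine synthetase and a classic ATF4 target, was nearly silent: the BALB/c libraries held 0, 0 and 24 reads and the SKG libraries 15, 0 and 1. Both genotypes had a library at 0, so Asns could not be compared.

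The mitochondrial one-carbon genes differed in level and in sign. Shmt2, which turns serine into glycine and a one-carbon unit, had 193, 353 and 283 CPM in BALB/c and 392, 345 and 286 CPM in SKG. Its log2 fold change was 0.30 ± 0.25 (SE), and BALB/c 1 was the lowest library. It was 0.11 without BALB/c 1, 0.19 without SKG 1 and 0.51 without BALB/c 2. Mthfd2, which oxidizes that one-carbon unit, had 89.0, 99.9 and 56.0 CPM in BALB/c and 42.2, 35.8 and 80.0 CPM in SKG. Its log2 fold change was -0.63 ± 0.41 (SE), with SKG 3 among the BALB/c libraries and an edgeR adjusted p of 0.982.

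Transporters included the most abundant member. Slc1a5 (ASCT2), which imports glutamine and other neutral amino acids, had 181 ± 53.0 CPM per kb of transcript (SD, n = 6 libraries). Shmt2 (135 ± 30.7), Dars (135 ± 21.3), Farsa (134 ± 19.8) and Atf4 (119 ± 25.5) followed, and these 4 differed from each other by less than their SDs. The gap between Slc1a5 and Shmt2 was larger than the SD of Shmt2 and smaller than that of Slc1a5. Slc1a5 had 545, 713 and 534 CPM in BALB/c and 418, 522 and 273 CPM in SKG. The lowest BALB/c library was just above the highest SKG library, and with median-ratio (RLE) factors in edgeR the genotypes overlapped. The log2 fold change was -0.56 ± 0.26 (SE), with an edgeR adjusted p of 0.952, and without SKG 3 it was -0.33.

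The other transporters overlapped between the genotypes. Slc38a1 (SNAT1), a glutamine carrier, had 331, 422 and 441 CPM in BALB/c and 352, 362 and 255 CPM in SKG. Its relative Slc38a2 (SNAT2), which amino acid shortage induces in many cells, had 515, 409 and 458 CPM in BALB/c and 521, 599 and 406 CPM in SKG. Slc7a5 (LAT1), the carrier of large neutral amino acids, had 173, 301 and 176 CPM in BALB/c and 306, 211 and 179 CPM in SKG. For each of these 3 genes, libraries of one genotype lay among those of the other. Slc7a1, a carrier of cationic amino acids, averaged 87.6 ± 11.3 CPM in BALB/c and 74.3 ± 21.7 CPM in SKG (SD, n = 3 libraries each). Slc7a6, which exchanges cationic for neutral amino acids, averaged 117 ± 54.4 and 111 ± 50.4 CPM. Slc1a4 (ASCT1), a relative of Slc1a5, was not tested, with 2, 0 and 0 reads in BALB/c against 51, 22 and 0 in SKG. Summed over all 7, transporters had 1727, 2105 and 1799 CPM in BALB/c and 1772, 1917 and 1275 CPM in SKG.

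**Figure D3:**
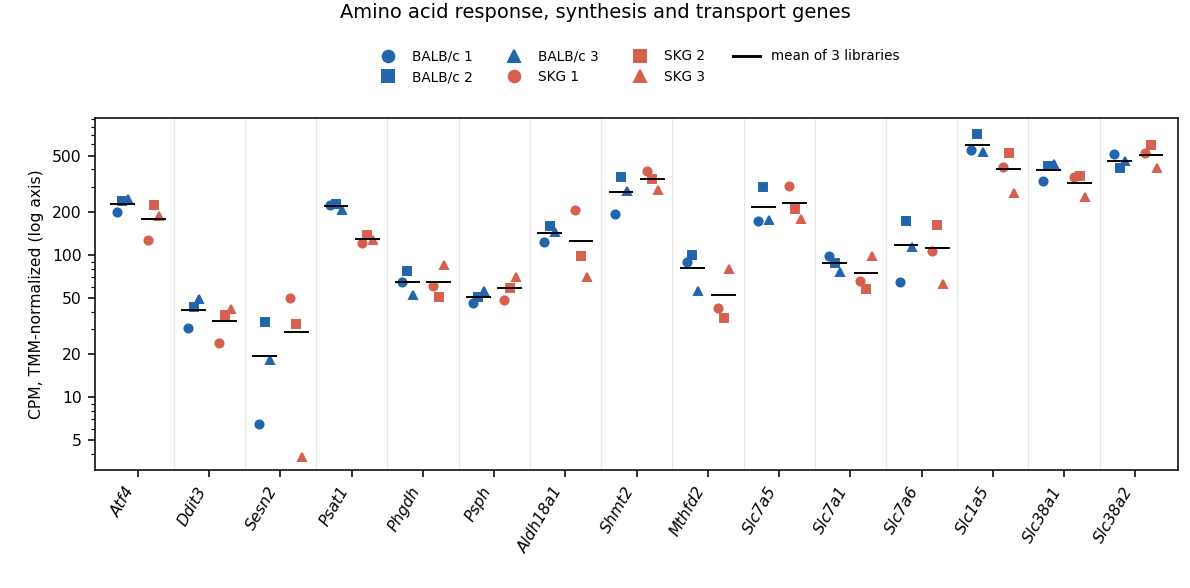
TMM-normalized CPM (log axis) of the 15 tested genes of the response, synthesis and transport in each library; colours mark genotypes, shapes replicates, and lines the mean of 3 libraries. Slc1a5 is the highest gene, Sesn2 spreads from 3.82 to 50.2 CPM, and only Psat1 and Slc1a5 have no overlap between the genotypes.

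In the plot of response genes, the SKG 3 point is the lowest of all 6 for Sesn2, Aldh18a1, Slc7a6, Slc1a5, Slc38a1 and Slc38a2. For Phgdh and Psph, it is the highest.

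All 20 cytosolic synthetase genes were tested, and their summed level was similar in both genotypes. It was 3774.5 CPM in BALB/c 1, 4205.5 in BALB/c 2 and 3834 in BALB/c 3, and 4091, 3759 and 3384 CPM in SKG 1 to 3. The log2 ratio of the genotype means was -0.07. With each library left out it was between -0.14 and 0.01, and only without SKG 3 above 0. Of the 20, 7 had fitted fold changes above 0 on the log2 scale and 13 below, with a median of -0.14. None was called by edgeR (0% of 12312 genes) or DESeq2 (2.58% of 14342 genes). At an unadjusted edgeR p under 0.05, 1 was higher in SKG (Rars; 3.07% of all genes) and 1 in BALB/c (Gars; 2.38%). By structural class, the 9 class I enzymes had a median log2 fold change of -0.03 and the 10 class II enzymes one of -0.14, with Eprs, which carries one domain of each class, left out of both.

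The 8 synthetases of the multi-synthetase complex summed to 1454 ± 214 CPM in BALB/c and 1424 ± 25.8 CPM in SKG (SD, n = 3 each). Rars, the arginyl-tRNA synthetase (chr11:35808381-35834506, minus strand), had 104, 124 and 107 CPM in BALB/c and 129, 162 and 251 CPM in SKG. All SKG libraries were above all BALB/c libraries, with SKG 1 and BALB/c 2 close together. The log2 fold change was 0.70 ± 0.27 (SE), with an edgeR adjusted p of 0.88. Without SKG 3 it was 0.40, so a large share of it came from that library. Dars, the aspartyl-tRNA synthetase, had 234, 357 and 340 CPM in BALB/c and 276, 271 and 278 CPM in SKG. Its SKG libraries were close to each other and lay between the lowest and the middle BALB/c library. The other 6 overlapped between the genotypes. Eprs and Lars, for glutamic acid with proline and for leucine, ranged most widely, 2.99-fold and 4.004-fold over the 6 libraries, and had their 2 lowest values in BALB/c 1 and SKG 3. Mars, for methionine, ranged least of all tested members (1.36-fold), and its log2 fold change was -0.03 ± 0.17 (SE). Iars, for isoleucine, had a log2 fold change of -0.34, while Kars, for lysine, and Qars, for glutamine, had 0.14 and 0.18.

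The 12 free synthetases summed to 2484 ± 76.4 CPM in BALB/c and 2321 ± 378 CPM in SKG (SD, n = 3 each). Gars, the glycyl-tRNA synthetase whose promoter sequence is printed above, had 296, 223 and 175 CPM in BALB/c and 146, 154 and 172 CPM in SKG. BALB/c 3 and SKG 3 nearly touched at 175 and 172 CPM, and with median-ratio (RLE) factors in edgeR the genotypes overlapped. The log2 fold change was -0.56 ± 0.22 (SE), with an edgeR adjusted p of 0.894, and without BALB/c 1 it was -0.33. Aars, the alanyl-tRNA synthetase, had 127, 180 and 153 CPM in BALB/c and 136, 168 and 45.7 CPM in SKG. Only SKG 3 was apart from the rest, and exons of other genes, mostly Exosc6 (0 reads), overlap 15.1% of the exonic bases of Aars. Farsa, the α subunit of the phenylalanyl-tRNA synthetase, had 238, 202 and 219 CPM in BALB/c and 300, 272 and 233 CPM in SKG. Farsb, the β subunit of the same enzyme, had 263, 130 and 172 CPM in BALB/c and 180, 175 and 172 CPM in SKG. The log2 fold changes of these paired subunits were 0.29 ± 0.16 and -0.10 ± 0.27 (SE), and exons of Sgpp2 overlap 9.47% of the exonic bases of Farsb. Cars, for cysteine, had the lowest log2 fold change of the free enzymes, -0.72 ± 0.54 (SE), with 20.5 CPM in SKG 3 and 66.7 to 129 CPM in the other 5 libraries. The log2 fold changes of Hars, Yars, Sars, Wars, Tars, Nars and Vars lay between -0.48 (Hars) and 0.20 (Vars), all with overlapping libraries.

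**Figure D4:**
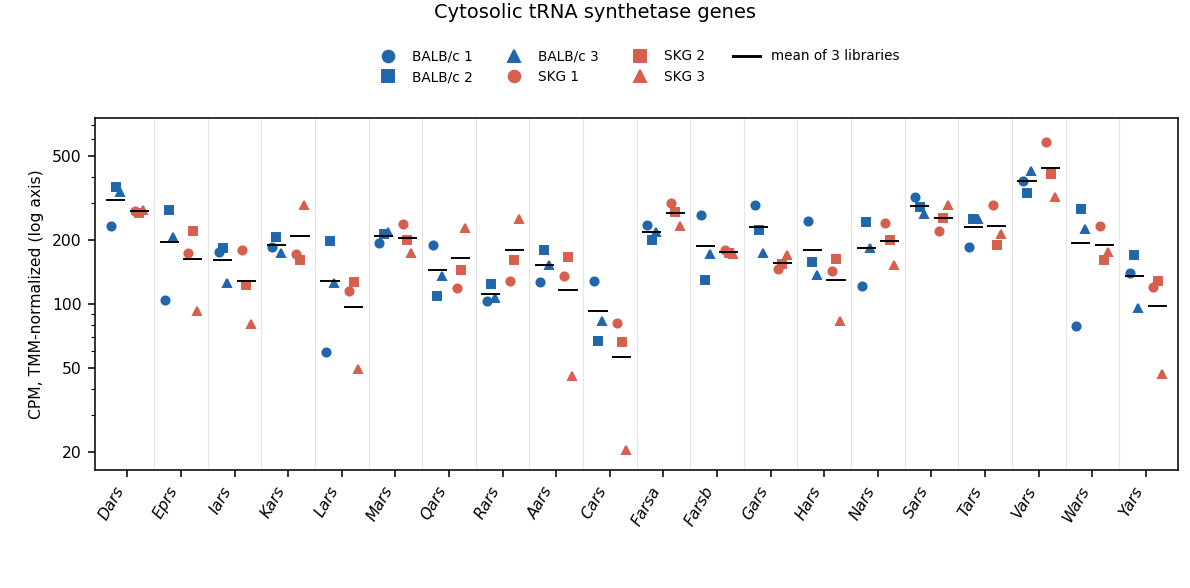
TMM-normalized CPM (log axis) of the 20 cytosolic synthetase genes in each library, those of the multi-synthetase complex at the left; colours mark genotypes, shapes replicates, and lines the mean of 3 libraries. Rars and Gars have no overlap between the genotypes, and the SKG 3 triangle is far below the rest for Cars (20.5 CPM), Aars (45.7 CPM) and Yars (46.8 CPM).

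Library differences within a genotype were often larger than differences between genotypes. Of the 35 tested members, 15 had their lowest value in SKG 3 and 8 in BALB/c 1, while 12 had their highest in BALB/c 2. In SKG 3 the members' log2 deviation from the mean of all libraries fell with transcript length, with a Spearman correlation of -0.53 across the 35 members, which are not independent and share that library. Over 10104 genes it was -0.06 in SKG 3. Limits on length were set after the values were seen. The 13 members of at least 3500 nt had a median log2 deviation of -0.48 in SKG 3 and the 12 of at most 2200 nt one of 0.07, while all tested genes of at least 3500 nt had -0.06. In SKG 1 the correlation across members was 0.36, and over 10104 genes it was also positive, at 0.21. Whether the members differed in this from other genes was not tested. The 10 members of intermediate length had a median of -0.33 in SKG 3. Psat1 (2617 nt) is one of these, and its deviation was -0.46, -0.29 and -0.40 in SKG 1 to 3, below 0 in each SKG library. Rars (2109 nt) is in the short class and had 0.85 in SKG 3. Without SKG 3 and BALB/c 1 together, Psat1 had a log2 fold change of -0.73 and Rars 0.34.

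**Figure D5:**
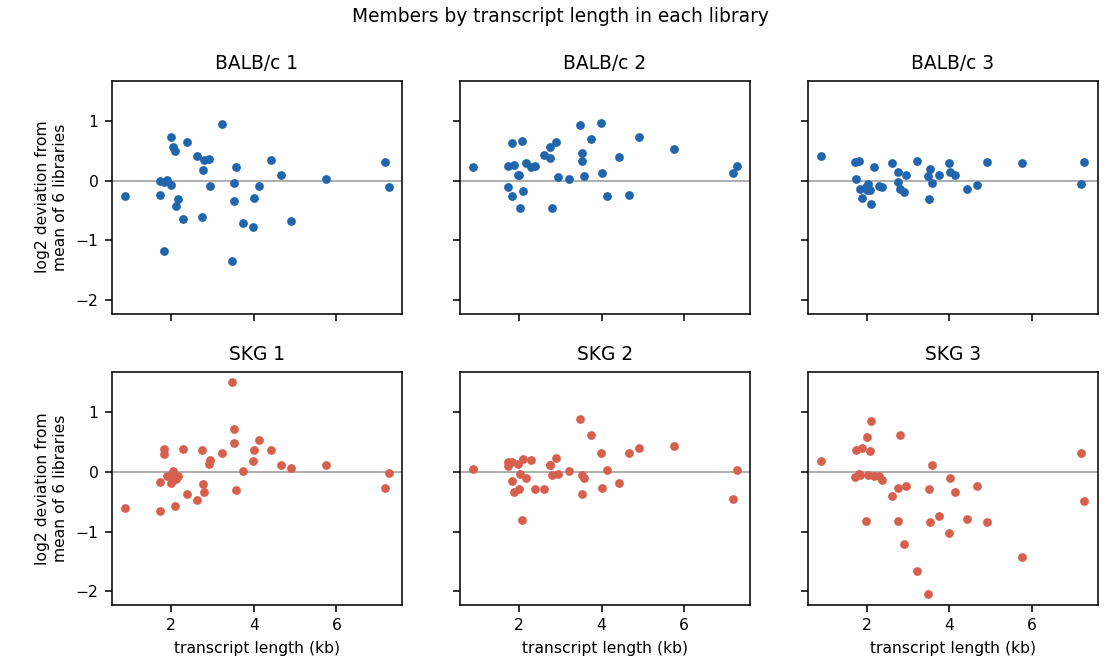
Log2 deviation of each of the 35 tested members from its mean over 6 libraries (vertical axis) against transcript length in kb (horizontal axis), 1 panel per library. In SKG 3 most members over 3.5 kb lie below 0 (median -0.48), and in SKG 1 the correlation with length is positive (0.36, beside 0.21 over 10104 genes).

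Related genes outside the list were read from the same fit, and edgeR called none of them. The scaffold proteins of the multi-synthetase complex were all tested, and 1 of 3 was at an unadjusted p under 0.05. This was Eef1e1 (AIMP3), with 91.4, 70.5 and 82.2 CPM in BALB/c and 48.9, 53.1 and 38.99 CPM in SKG. The libraries did not overlap, and the log2 fold change was -0.79 ± 0.26 (SE), with an adjusted p of 0.833 in edgeR and 0.0694 in DESeq2. The other scaffold genes, Aimp1 and Aimp2, had log2 fold changes of -0.01 and -0.09. Of 21 other amino acid transporters, 15 were tested and 1 was higher in SKG at that p. Slc36a4, a proton-independent carrier of proline and tryptophan, had 61.1, 40.3 and 46.8 CPM in BALB/c and 88.2, 84.1 and 75.7 CPM in SKG, without overlap. Its log2 fold change was 0.74 ± 0.26 (SE), with an edgeR adjusted p of 0.834. Slc3a2, whose protein pairs with that of Slc7a5 in LAT1, overlapped, with means of 200 ± 29.0 and 225 ± 48.5 CPM in BALB/c and SKG (SD, n = 3 each). Of 20 other targets and partners of Atf4, 12 were tested, and none was at an unadjusted p under 0.05 (median log2 fold change 0.14). The same held for the 14 of 17 folate and glycine genes tested (median -0.22). All 9 genes for eIF2 kinases, phosphatase subunits and GCN2 regulators were tested, none was at that p, and their median was 0.02.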

How the data were processed

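RNA of stage 0 iNKT cells was sequenced in 50-nt reads from 3 BALB/c and 3 SKG pools. The authors aligned reads with HISAT2 2.1.0 to GRCm38 without strand and deposited unnormalized read counts per gene, made by featureCounts (Subread 1.4.4) on Ensembl 85 exons at a mapping quality of at least 10. A second deposited table, the authors' own DESeq2 comparison (means, fold changes, errors, p-values), was not used. The labels and the study's methods name different amplification kits. PCR copies were counted as reads, so counting limits cover counting error only.

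Counts were filtered by filterByExpr, normalized by TMM and tested in R 4.3.3 with edgeR 4.0.16's quasi-likelihood F test, all 6 libraries in one fit without covariates, with Benjamini-Hochberg adjustment. An SE is the absolute log2 fold change over the square root of F. DESeq2 1.42.0, limma-voom (limma 3.58.1), other normalizations and filters, replicate blocks and left-out libraries were alternatives. Values per library are given for Atf4, for members at an unadjusted p under 0.05 or without overlap and for the 5 most abundant per kb. From each related list, genes at that p are named. Other members with values were chosen after these were seen, to show their role. Positions, lengths and overlaps are from GENCODE M21 (GRCm38), near-identical transcripts from BLAST 2.17.0 (at least 300 nt at 95%), and promoters from RefSeq. The members and lists were chosen with earlier results of these data known. Sequencing batches are not given in the sources used here. A marker gene and 1 promoter sequence are not reported here.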

Additional observations from a re-analysis of the deposited data

How the results depend on the processing

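Atf4, Psat1, Rars, Gars, Slc1a5, Shmt2, Dars, Farsa, Slc36a4, Eef1e1, Rragd, Nprl3 and Eif2ak4 kept the sign of their fold changes under every alternative. The other genes were not followed in this way, and some near 0 changed direction. Aimp1 was at -0.01 in edgeR and 0.02 in DESeq2. Against the sign of the reported fit, Kars was higher in BALB/c without SKG 3, and Farsb higher in SKG without BALB/c 1, neither with overlap. The log2 ratio of the summed synthetase levels, -0.07 in the reported fit, was 0.01 without SKG 3. The tool changed most: edgeR and limma-voom called no gene, DESeq2 370 (231 with shrunken fold changes) and edgeR without a filter on low counts 2, and both DESeq2 fits called 1 member, Psat1. Members at an unadjusted p under 0.05 and higher in SKG numbered 1 in the reported fit, 0 by limma-voom, 2 without the filter, and 0 to 2 with each library left out. Those higher in BALB/c numbered 2, against 1 by both DESeq2 fits and 1 to 2 with each library left out. With a replicate block by the number in the titles, 0 members were higher in SKG at that p, and with a replicate block by library number 0 in either direction. Residuals of libraries with the same number correlated at -0.145 to 0.00289. With 3 libraries per genotype and no batch given, such correlations cannot tell whether libraries with the same number were prepared together. The median log2 fold change of the members was -0.072 with shrinkage and -0.18 to -0.020 with each library left out, nearest to 0 without BALB/c 2. Members without overlap numbered 1 to 4 (SKG higher) and 4 to 7 (BALB/c higher) with 1 library left out, the most without BALB/c 1 or SKG 3, where the share of all genes also rose, to 9.49% to 13.5% and 10.8% to 12.5% over these settings. With median-ratio (RLE) factors in edgeR only 1 member was higher in BALB/c without overlap, Slc1a5 and Gars being lost. Without BALB/c 1 and SKG 3 together, a choice made after seeing the data, 2 members were higher in SKG and 1 in BALB/c at an unadjusted p under 0.05, the median was -0.072, and 5 and 11 members did not overlap, against 18.6% and 19.2% of all genes. DESeq2 called 1 to 3 members with each library left out: Psat1 each time, Trib3 in 3 fits on the 236 reads of SKG 2 alone, Gars without BALB/c 3 and Rars without SKG 1. The share of all genes that DESeq2 called in these left-out fits was not counted, so the member counts cannot be set against it. The cause of these changes was not tested.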

Other observations

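Eif2ak4, which encodes the kinase GCN2 that senses uncharged tRNA, was chosen after its values were seen. BALB/c libraries held 76, 21 and 1686 of its reads, SKG libraries 2817, 2931 and 4387. The SKG libraries were all above the BALB/c libraries, and BALB/c 3 stood far above the other two of its genotype. The log2 fold change was 2.75 ± 1.43 (SE), with an edgeR adjusted p of 0.954. It was 6.20 without BALB/c 3, 4.501 by limma-voom and 1.49 by DESeq2 with shrinkage. The other eIF2 kinase genes overlapped between the genotypes, with mean levels in BALB/c and SKG of 108 and 132 CPM for Eif2ak1 and of 48.6 and 34.9 CPM for Eif2ak3.

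Of 22 genes of amino acid sensing by mTORC1, which include the member Sesn2, all were tested and edgeR called none. At an unadjusted edgeR p under 0.05, 1 was higher in SKG (3.07% of all genes) and 1 in BALB/c (2.38%). Rragd, one of the Rag GTPases that bring mTORC1 to the lysosome, had 49, 386 and 184 reads in BALB/c against 0, 4 and 0 in SKG, with an adjusted p of 0.826 in edgeR and 0.00127 in DESeq2. Nprl3, a subunit of the GATOR1 complex that turns mTORC1 off, had 740, 751 and 2827 reads in BALB/c against 3664, 2197 and 5125 in SKG. Its libraries overlapped after normalization, at 62.6 CPM in BALB/c 3 and 56.5 CPM in SKG 2, with a log2 fold change of 1.52 ± 0.61 (SE) and an edgeR adjusted p of 0.894. Without BALB/c 3 the log2 fold change was 2.34, and without BALB/c 1 and SKG 3 together it was 0.84.

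None of the 17 mitochondrial synthetases, the 17 of 18 tRNA processing and export genes tested or the 20 RNA polymerase III genes was called by edgeR or at an unadjusted p under 0.05. Their median log2 fold changes were 0.18, -0.10 and 0.08.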
